A study of Mus musculus with 8 samples.

Results

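This account covers the probes for unnamed full-length cDNA clones, those whose identifier on the array is an accession made of the letters AK and digits, called AK probes here. The array carried 2497 such probes for 2457 accessions, among 55681 probes in all. The probes were chosen by the scanner software's detection flag: a spot flagged as well above background on 3 or more arrays of the 8, in either group, was enough. This kept 1008 AK probes of 990 accessions, and 30348 probes of all kinds met the same rule. Because the flag chose the probes, counts of detected arrays are given as description only.

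Mouse morulae at embryonic day 3.0 were compared after injection of siRNA. The P150KD group (5 arrays) had received siRNA targeting P150, which is the largest protein of CAF-1, as 1-cell embryos, and the siControl group (3 arrays) control siRNA. Embryos of both groups were made by in vitro fertilisation and cultured in KSOM, a medium for early embryos, and each array held amplified RNA pooled from 10 embryos. The knockdown is partial, as the values of the target below show. The arrays are numbered as replicates, with no word on whether they hold separate collections of embryos, so the p-values cover only the spread among these samples, which may be technical.

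Sequences with the AK prefix come from cDNA projects in Japan, in the mouse mainly from the RIKEN full-length cDNA collection. That collection was built to catch whole transcripts from many tissues and stages, and it holds coding copies of known genes, transcripts without a clear reading frame, antisense transcripts and transcripts that start inside retrotransposons. CAF-1, a histone chaperone, places histones H3 and H4 on newly copied DNA, and in early embryos it takes part in keeping retrotransposons silent. None of the 2457 accessions matched a symbol or synonym of the RefSeq gene table, the array files pair no gene name, genome position or sequence with them, and the clones are therefore named by accession only.

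The siRNA target gave the check on the labels. Chaf1a, which encodes P150, read 2.40, 2.09 and 2.27 on the siControl arrays and -1.47, 0.52, -0.48, -1.45 and -0.23 on the P150KD arrays, in replicate order. Each value is a log2 signal from which the array's own 75th percentile was subtracted, the scale of all levels below. The groups did not overlap, and the signal was 7.34-fold lower in P150KD (log2 difference -2.88, SE 0.48, limma adjusted p = 0.0107; 0.0509 when blocked by slide column, described below). Per array, 50.1% to 55.9% of spots were detected and no spot was saturated. All 12 marker genes of the morula and its first lineages were above background on the 3 siControl arrays, and 4 of them fell. Has2, Ptx3, Tnfaip6, Cyp11a1 and Fshr, 5 of 8 markers of cumulus and granulosa cells, were above background on no array; Foxl2 was detected on all 8 (mean 0.77 in siControl and 0.94 in P150KD), Star on 2 arrays of each group and Amh on 1, and neither Foxl2 nor Star, the tested genes of the list, passed (adjusted p = 0.683 and 0.47 in limma). Of 6 sperm markers, Acrv1 was detected on no array, Odf1 on 1 P150KD array and Tnp2 on 1 array of each group. Prm1 and Tnp1 were each detected on 2 siControl and 4 P150KD arrays, and Prm2 on all 8. The summed linear level of the sperm list was 0.16 to 0.24 in siControl and 0.23 to 1.83 in P150KD. Of 6 fibroblast markers, Col1a2 and Dcn were detected on no array, Lum on 1 P150KD array, and Col1a1, Pdgfra and Thy1 on all 8. The 3 tested genes of each list had limma adjusted p of 0.1 or more. No array detected the leukocyte genes Ptprc, Laptm5, Tyrobp, Lyz2 and Cd53, while the other 3 of 8 leukocyte markers rose, and the summed linear level of that list went from 1.06 to 1.40 in siControl to 4.44 to 9.85 in P150KD. The part of these markers in the differences below was not tested.

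Detection of the kept AK probes was mostly shared by the groups, which the rule of 3 arrays favours. Of the 2497, 900 were above background on no array, 391 on 1 and 198 on 2. Of the 1008 kept, 524 (52%) were above background on all 8 arrays, against 70.6% of all 30348 probes. Of the 1008, 43 were dark in siControl, meaning above background on no array of that group, and 3 of the 43 were detected on all 5 P150KD arrays. The 5 that were dark in P150KD were detected on all 3 siControl arrays, as the rule requires. Among all 30348 tested probes 929 were dark in siControl and 85 in P150KD. With 5 P150KD and 3 siControl arrays the rule admits the first state more easily, so these counts do not compare the groups. At the edge of the rule, the 126 probes detected on 3 arrays had mean levels between -6.11 and -3.86 (median -5.21), and the 198 left out with 2 arrays had levels between -6.62 and -4.75 (median -5.82).

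**Figure D1:**
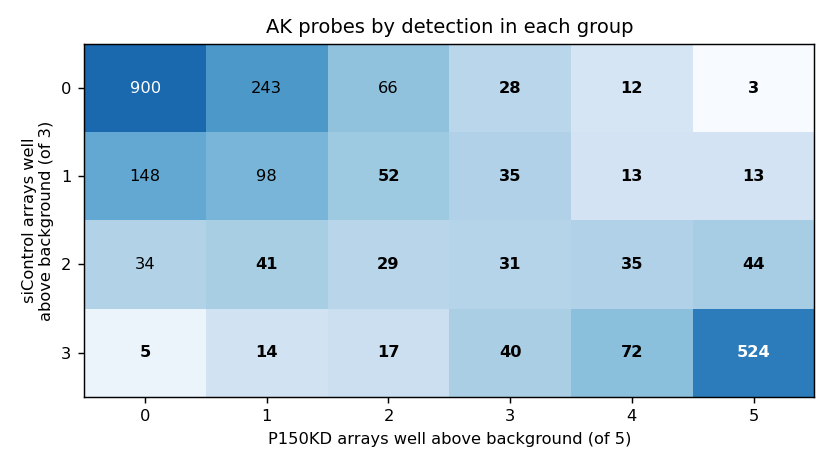
Number of AK probes by the count of siControl arrays (vertical, of 3) and P150KD arrays (horizontal, of 5) on which the probe was well above background; bold numbers met the rule of at least 3 arrays. The largest cells are the 900 probes detected nowhere and the 524 detected on all 8 arrays.

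P150KD was set against siControl to ask which of these transcripts change when the embryo develops with little P150. In the knockdown morulae 56 AK probes of 53 accessions were higher and 36 probes of 36 accessions were lower past the threshold (limma, Benjamini-Hochberg adjusted p under 0.05 over all 30348 probes). Among all tested probes 6.28% were higher and 7.66% lower. The 92 calls are 9.13% of the AK probes, beside 13.9% called among all tested probes. Higher calls made up 60.9% of the AK calls and 45.1% of all calls. The median log2 difference was -0.10 for AK probes and -0.20 for all tested probes. With quantile normalization this gap shrank, to 64.3% and 58.3% higher calls and medians of -0.12 and -0.13. Of the 92 calls, 27 fell on probes detected on 3 to 7 arrays, where the detection that admitted a probe is tied to its difference. These were 5.58% of 484 such AK probes (19 higher and 8 lower). Of 8926 such probes of any kind 8.75% were called (592 higher and 189 lower). Among the AK calls rises were the larger changes: 54 of the 56 reached 2-fold, with a median of 2.31 on the log2 scale, while 27 of the 36 falls did, with a median size of 1.60. Over all tested probes 1673 of 1907 rises and 1558 of 2324 falls reached 2-fold (5.51% and 5.13% of tested probes). The larger share among rises was thus not particular to AK probes. The arrays of the 2 groups did not overlap for 169 AK probes (16.8%), beside 27.1% of all tested probes. In RNA of whole embryos, fewer cells of a type and less RNA per cell cannot be told apart.

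The signals of AK probes were low, and the called share followed the signal. Their median level was -2.85, beside -0.78 for all tested probes and 0.55 for the 18339 tested probes with an NM accession, the RefSeq mRNAs. The median SD between replicate arrays was 0.67 in siControl and 0.78 in P150KD for AK probes, against 0.40 and 0.48 for all. All tested probes were ranked by level and cut into 4 bins of 7587. In the dimmest bin 4.25% of 400 AK probes were called, beside 5.96% of all probes there. The shares were 7.76% of 335 and 9.95% in the next bin, 15.7% of 204 and 18.1% in the third, and 24.6% of 69 and 21.8% in the brightest. Both sets thus rose in called share with level. In the brightest bin 11 AK probes were higher and 6 lower (median 0.12), where all probes had 464 higher and 1190 lower (median -0.28). Restricted to probes above background on all 8 arrays, 37 of 524 AK probes were higher and 28 lower (12.4%), beside 16.1% called of 21422 probes. Other classes with few names had similar counts: 280 higher and 175 lower of 5866 genomic interval probes (7.76%), and 104 higher and 67 lower of 1472 probes for Ensembl transcripts (11.6%). No difference between these classes was tested.

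**Figure D2:**
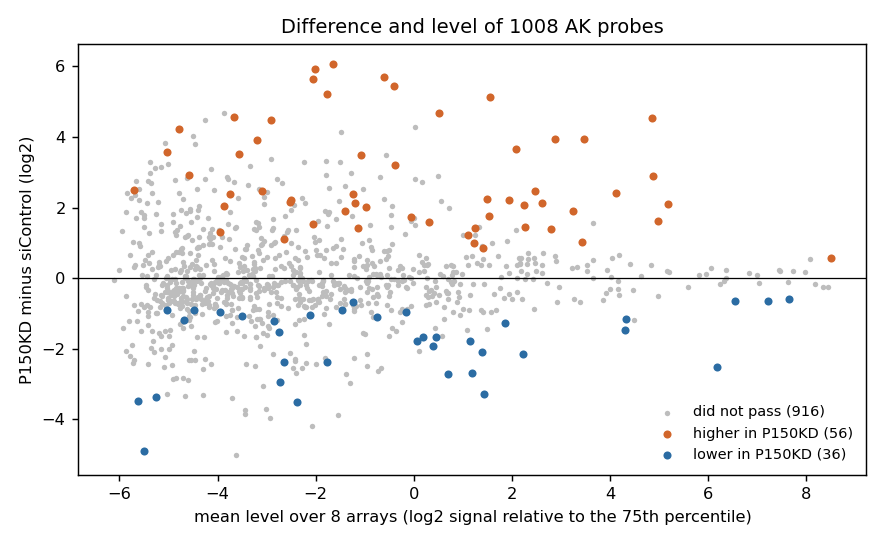
Mean level over the 8 arrays (horizontal, the log2 scale of the text) against the log2 difference P150KD minus siControl (vertical) for the 1008 AK probes. The 56 probes that were higher past the threshold (orange) reach a difference of 6.08, and the 36 lower ones (blue) reach -4.91; grey points did not pass.

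These counts have limits. Without siControl replicate 1 there were 35 higher and 13 lower (4.76%, beside 5.62% of all tested probes). Falls numbered 21 without siControl replicate 2 (6.35% called in either direction, beside 7.43%) and 19 without siControl replicate 3 (6.15%, beside 7.16%). The slide holds its arrays in 2 columns, one with the 3 controls and P150KD replicate 1 and the other with P150KD replicates 2 to 5. Blocking by column sets P150KD replicate 1 alone against the controls, and then 22 AK probes were higher and 7 lower (2.88%, beside 2.35% of all tested probes). Scaled to 12 housekeeping genes instead of the 75th percentile, 114 were higher and 10 lower, so that 91.9% of AK calls were higher, beside 90.2% of all calls, and 12.3% of AK probes were called, beside 15.8%, with the median difference of all tested probes moved from -0.20 to 0.41. All 12 of these genes themselves read lower in P150KD on the 75th percentile scale, with log2 differences from -0.05 (Gusb) to -1.68 (Pgk1).

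Among probes measured on all 8 arrays, the 6 largest rises were between 11.3-fold and 34.9-fold. AK155468 led them, with -2.60, -1.68 and -0.70 on the siControl arrays and 4.49, 3.47, 1.89, 4.03 and 3.47 on the P150KD arrays. Its lowest knockdown array stood more than 2 log2 units above its highest control (log2 difference 5.13, SE 0.65, limma adjusted p = 0.0047). AK139567 read 2.15, 2.51 and 1.40 in siControl and 7.52, 6.70, 5.80, 6.67 and 6.12 in P150KD. Every knockdown array lay more than 3 log2 units above every control, a 23.3-fold rise (4.54, SE 0.43, adjusted p = 0.00204). AK143258 went from 0.09, 1.28 and 1.65 to 6.63, 4.50, 3.84, 4.96 and 4.83 (3.94, SE 0.64, adjusted p = 0.0102), with replicate 1 the highest of the knockdown arrays. AK139496 went from 0.95, 0.48 and -0.19 to 5.36, 3.99, 3.68, 4.79 and 3.95 (3.94, SE 0.45, adjusted p = 0.00366), again with replicate 1 on top. The probe of AK139675 with the largest rise stood at 0.88, -0.14 and -1.33 in siControl and 4.52, 2.63, 2.59, 4.56 and 2.96 in P150KD, where replicates 1 and 4 stood together above the rest (3.65, SE 0.69, adjusted p = 0.0161). A probe of AK020613 rose from -2.70, -3.55 and -3.52 to 0.58, 0.58, -0.74, 0.38 and 0.42 (3.50, SE 0.37, adjusted p = 0.00292). Blocked by slide column, 5 of the 6 stayed past the threshold, and AK139675 did not (adjusted p = 0.0806). The block sets P150KD replicate 1 alone against the controls, and that array was the highest knockdown array on each of the 5. Staying past the threshold there thus says little about the other knockdown arrays. That probe of AK139675 also missed the threshold without siControl replicate 2 (adjusted p = 0.0519) or replicate 3 (0.0539), within a range of 0.00704 to 0.12 over all alternatives.

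The 6 largest falls measured on all 8 arrays were between 5.16-fold and 9.65-fold. AK144577 stood at 3.13, 3.51 and 3.77 in siControl and at 0.13, -0.14, 1.02, -0.70 and 0.69 in P150KD, so that every knockdown array lay at least 2 log2 units below the lowest control (-3.27, SE 0.41, adjusted p = 0.00449). AK017416 went from 2.27, 2.49 and 2.42 to -0.74, -0.27, -0.70, 0.31 and -0.19 (-2.71, SE 0.27, adjusted p = 0.00239). Its controls lay within 0.3 of each other. AK154578 went from 2.68, 2.75 and 3.17 to -0.60, -0.41, 0.79, 0.57 and 0.58 (-2.68, SE 0.38, adjusted p = 0.00657). AK166854 stood at 7.74, 7.70 and 7.84 in siControl and fell to 4.50, 5.17, 5.00, 5.67 and 5.85 (-2.52, SE 0.32, adjusted p = 0.0047). AK134220 went from -0.23, -0.75 and 0.12 to -2.94, -2.69, -3.12, -2.40 and -2.14 (-2.37, SE 0.30, adjusted p = 0.0047). AK141659 went from -1.15, -1.54 and -0.76 to -1.97, -4.49, -4.31, -3.03 and -3.89 (-2.39, SE 0.59, adjusted p = 0.037). Its replicate 1 lay close to the controls, and the difference within the first slide column was -0.82 (adjusted p = 0.562). AK141659 passed in only 1 of the 8 fits that leave out an array, that without P150KD replicate 1 (adjusted p = 0.0146), with values up to 0.118 in the others. The slide column block sets P150KD replicate 1 alone against the controls. That array was the lowest knockdown array on AK017416, AK154578 and AK166854, and not on the other falls. Blocked by slide column, AK017416, AK154578 and AK166854 passed, while AK144577 (0.0682) and AK134220 (0.0515) did not.

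**Figure D3:**
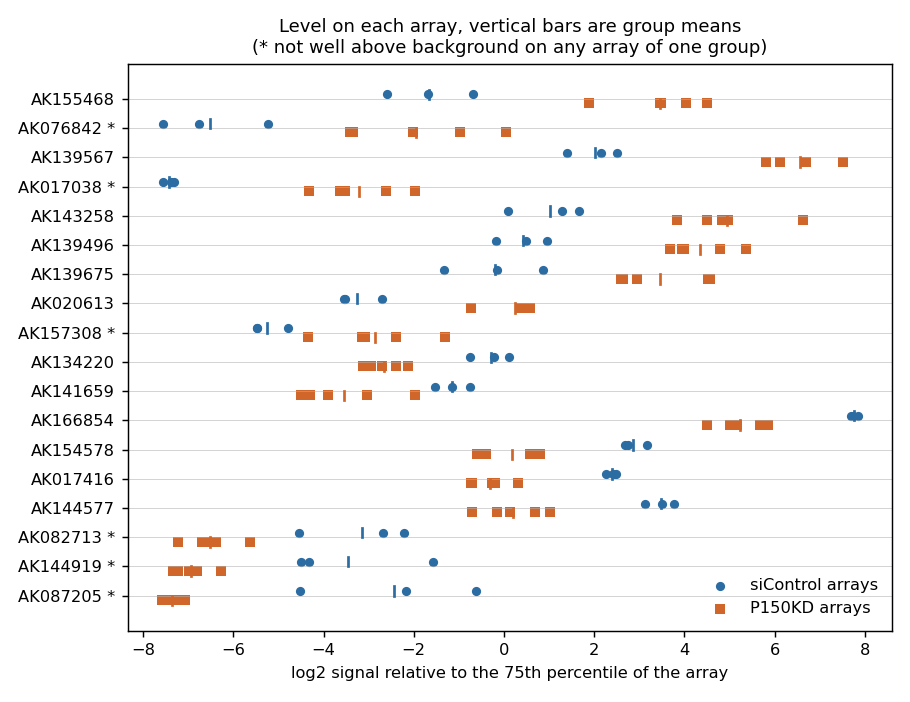
Level of 18 AK probes on each array (horizontal, log2 signal minus the array's 75th percentile), siControl as blue circles and P150KD as orange squares, with group means as vertical bars. These are the 12 largest changes measured on all 8 arrays, and 6 probes past the threshold (asterisk). The 6 were dark in a group and detected on every array of the other. Non-overlap of the groups was required of the 12 and is favoured by the choice of the 6, so it is no result.

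Probes dark in a group owe their place here to the arrays of the other group. Their values and their calls past the threshold are therefore a description, and no test is read from them. A lower bound for the change was taken on each dark array against the dimmest probe flagged as detected, or against the probe's own signal where that was brighter. The 3 AK probes dark in siControl and detected on all 5 P150KD arrays were all past the threshold, as were 181 of 196 probes of any kind in that state. Their selection favours such calls. As a share of tested probes this is 0.298% for AK and 0.596% for all. AK076842 read -5.23, -7.55 and -6.75 in siControl and 0.04, -0.97, -3.36, -2.02 and -3.41 in P150KD, at least 9.21-fold higher. AK157308 read -5.48, -5.46 and -4.80, then -1.31, -3.07, -4.35, -2.40 and -3.15, at least 4.63-fold higher. AK017038 read -7.38, -7.56 and -7.32, then -3.53, -1.98, -3.63, -4.31 and -2.61, at least 3.83-fold higher. The knockdown arrays of each were themselves spread over more than 2 log2 units. The other 40 AK probes dark in siControl were detected on 3 or 4 knockdown arrays.

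Of the 5 AK probes dark in P150KD and detected on all siControl arrays, 3 were past the threshold, as were 56 of 85 probes of any kind in that state (0.298% of tested AK probes, beside 0.185% of all tested probes). Here too the selection favours the calls, and they are a description. AK087205 read -4.52, -0.63 and -2.17 in siControl and between -7.57 and -7.07 on the 5 knockdown arrays, at least 6.93-fold lower. AK082713 read -2.69, -2.21 and -4.54 in siControl and between -7.24 and -5.63 in P150KD, at least 4.24-fold lower. AK144919 read -1.56, -4.49 and -4.33 in siControl and between -7.34 and -6.28 in P150KD, at least 3.41-fold lower. In each of the 3 the control arrays were spread over more than 2 log2 units.

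The largest fitted differences of all belonged to probes seen on only 1 or 2 control arrays, picked out here after their values were seen and given as a description. AK076896 read -5.20, -4.07 and -7.06 in siControl and 1.61, -1.09, 0.97, 1.23 and 0.43 in P150KD (log2 difference 6.08). AK038822 read -6.93, -7.12 and -3.09, then 0.79, -0.35, -0.44, 1.40 and -0.37 (5.92). AK030017 read -3.40, -1.86 and -7.22, then 2.24, 1.34, 1.18, 1.57 and 1.32 (5.69). AK045242 had a control at -1.98 beside -7.41 and -7.36, and knockdown arrays between -0.68 and 1.28 (5.65). The groups did not overlap in any of the 4, but the sizes rest on control values near or below the floor of detection.

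The 4 AK probes with the highest signals, a property of probe as well as transcript, differed little. AK146304 read 8.52, 8.50 and 8.78 in siControl and 8.54, 8.37, 8.39, 8.28 and 8.11 in P150KD (-0.26, SE 0.17, adjusted p = 0.338). AK146165 differed by -0.25 (SE 0.17, adjusted p = 0.357) and AK136409 by -0.17 (SE 0.21, adjusted p = 0.633), with overlapping groups in both. AK135063 read 8.19, 8.05 and 8.16 in siControl and 8.85, 8.77, 8.66, 8.78 and 8.50 in P150KD. Its groups did not overlap, but the difference of 0.58 (SE 0.16) was barely past the threshold (adjusted p = 0.0499) and missed it when any 1 of the 8 arrays was left out (0.0503 to 0.143).

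For 15 accessions more than 1 probe was measured, 33 probes in all, which share a transcript and are not replicates. In 13 of the 15 the probes differed from siControl in the same direction, and in 8 the log2 differences lay within 1 of each other. A second probe of AK020613 read -6.17, -7.22 and -3.89 in siControl and -2.31, -1.54, -2.88, -2.38 and -2.16 in P150KD. It was detected on 1 control, and the other two lay below the dimmest detected probe of their arrays (-5.11 and -5.30), so only its direction can be set beside the first probe. All 3 probes of AK139675 rose, but by different amounts. The other two went from 0.25, 0.31 and 0.49 to 2.11, 1.07, 0.99, 1.99 and 1.66 (1.22, SE 0.31, adjusted p = 0.0413) and from -0.88, -0.87 and -0.31 to 1.66, 0.36, 0.32, 1.53 and 0.70 (1.60, SE 0.39, adjusted p = 0.0346). Each of these lost its call in 6 of 8 fits that leave out an array, with adjusted p up to 0.127 and 0.115, the highest without siControl replicate 1. The probes of AK006305 disagreed most: one, detected on 2 controls, went from -5.59, -3.53 and -2.25 to 0.97, 2.24, 2.31, 1.31 and 1.36 (5.43, SE 0.72), and the other, above background on 1 control and 3 knockdown arrays, differed by 1.58 (SE 1.21, adjusted p = 0.417). The probes of AK145750 differed by 0.06 and 1.81, and neither passed (adjusted p = 0.959 and 0.299).

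Clones submitted together carry neighbouring accession numbers, so the probes were also set out by the first 3 digits of the number. Of 110 such blocks only 6 held 20 or more tested probes, and in these the called share ran from 2.5% to 12.1%, with 6 rises and 5 falls among 171 probes. A block outside that size limit, singled out after its values were seen and with no test, was AK139. It held 15 tested probes of 13 accessions, and 7 probes of 5 accessions rose while 0 fell (46.7%, beside 9.13% of all AK probes and 13.9% of all tested probes; median log2 difference 0.98). Its median level was 0.31, beside -2.85 for all AK probes. In the third level bin, where 0.31 lies, 15.7% of AK probes and 18.1% of all probes were called. Of the 110 blocks, 37 were of similar size, so there were many to pick from. The 7 became 4 without siControl replicate 1, 4 without replicate 2 and 3 without replicate 3, and 2 (AK139496 and AK139567) when blocked by slide column. Besides AK139567, AK139496 and the 3 probes of AK139675, these were AK139732, which went from -0.35, 0.04 and 0.57 to 2.11, 2.09, 2.30, 2.67 and 2.46 (2.24, SE 0.26, adjusted p = 0.00364), and AK139836. The latter went from 2.004, 3.05 and 2.74 to 5.63, 4.32, 4.15, 5.74 and 5.26 (2.42, SE 0.46, adjusted p = 0.0166; 0.0662 without siControl replicate 1 and 0.0511 without replicate 3). AK139645 had non-overlapping groups, 3.52 to 3.78 in siControl and 4.06 to 4.48 in P150KD, but missed the threshold (0.58, SE 0.17, adjusted p = 0.0602). The block's remaining 7 probes had overlapping groups and differences between -1.17 and 0.98. Whether the clones of this block share sequence could not be seen from the files used here.

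**Figure D4:**
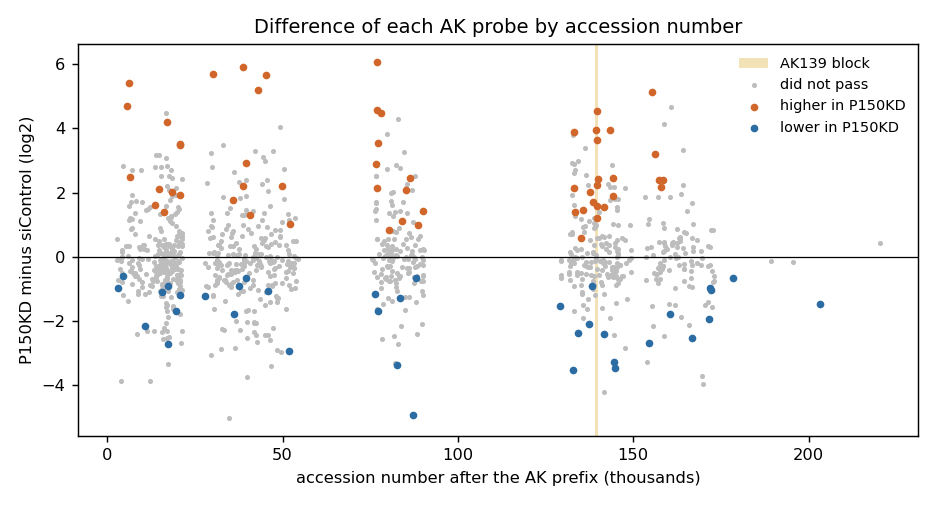
Log2 difference P150KD minus siControl (vertical) of each of the 1008 AK probes by the number in its accession (horizontal). The shaded band is the AK139 block, where 7 of 15 probes were higher past the threshold (orange) and 0 were lower (blue); grey points did not pass.

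The knockdown arrays differed among themselves in the height of the rises. P150KD replicate 1 was the highest of the 5 arrays for 27 of the 56 AK probes that rose (48.2%) and replicate 4 for 14 (25%), while replicates 2 and 3 were each the lowest for 20 (35.7%). Among all 1907 probes that rose, replicate 1 was highest for 34.9% and replicate 4 for 24.9%. Replicates 1 and 4 were jointly the top arrays for 25 of the 56 (44.6%), beside 23.6% of all rises. They were also the top arrays for 5 of the 7 risen probes of the AK139 block, among them the 3 probes of AK139675, which share a transcript. On the same arrays Chaf1a read -1.47 and -1.45, against -0.48 to 0.52 on the other three. With 5 knockdown arrays no relation between these levels was tested. Among the 36 falls the lowest array was replicate 4 for 11 (30.6%, beside 28.4% of all 2324 falls) and replicate 1 for 7 (19.4%, and 19.4% of all). The highest was replicate 5 for 12 (33.3%, beside 20.8%) and replicate 1 for 8 (22.2%, beside 15.9%).

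Many AK probes swung between arrays of the same group. On 119 of them (11.8%) siControl replicate 3 read more than 2 log2 units below both other controls, beside 5.99% of all tested probes. The corresponding shares were 2.08% for siControl replicate 1 and 3.37% for replicate 2, and between 1.29% and 3.87% for the knockdown arrays, each of which had to lie below 4 others. On 29 of the 119 the probe still counted as above background on siControl replicate 3. AK167004 shows the pattern at high signal. Its brightest probe read 6.99, 6.59 and 4.02 in siControl and 5.65, 7.16, 7.05, 5.70 and 5.27 in P150KD (0.30, SE 0.78, adjusted p = 0.823). A second probe of the same clone moved alike, with 6.20, 5.89 and 3.02, then 4.61, 6.03, 6.16, 4.92 and 4.41. The lowest siControl array on both was replicate 3, and P150KD replicates 2 and 3 were the highest of their group. Over the 1008 AK probes the Pearson correlation between arrays, a description across probes that share each array's amplification, was 0.773 to 0.854 within siControl, 0.782 to 0.831 within P150KD and 0.707 to 0.817 between the groups.

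**Figure D5:**
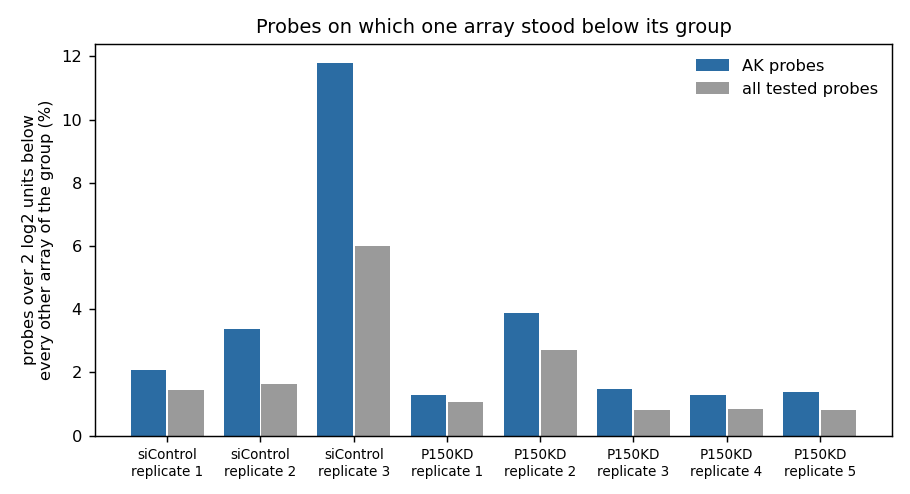
Share of probes (vertical, percent) on which an array read more than 2 log2 units below every other array of its group, for AK probes (blue) and all tested probes (grey). The tallest bars are those of siControl replicate 3, at 11.8% and 5.99%.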

How the data were processed

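RNA of 8 mouse morula samples was measured on one-colour arrays. Per the labels, RNA was amplified in 2 rounds and an equal mass was labelled, so levels are relative. Scans were read by the authors in Agilent Feature Extraction 10.5.1, per the file headers. The deposited processed signal, an intensity, had local background and spatial trend removed and was not normalized between arrays; the other columns used are median spot and background intensities and 0 or 1 flags. The deposited series table holds log2 values, which match log2 processed signals scaled to the 75th percentile then centred per probe on the median across arrays (r at least 0.999999 for every array, column medians -0.21 to 0.09); how it was made is not given in the sources used here.

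Spots of a probe were averaged on the log2 scale, leaving out a non-uniform or outlier spot if the probe had another. A probe counted as above background where at least 0.5 of its spots did. The 75th percentile over probes was subtracted from each array; it lay between 819 and 1304 processed signal units. Their number of arrays limits the precision. The groups were compared without covariates in limma 3.58.1 under R 4.3.3, by lmFit and eBayes. Two-sided p-values were adjusted by Benjamini-Hochberg across the 30348 probes, with a threshold of 0.05. Tables and figures used Python 3.11.15, pandas 2.3.3, numpy 2.4.6 and matplotlib 3.10.9, and array weights statmod 1.5.0.

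Named probes are the 6 largest rises and falls among called probes measured on all 8 arrays whose groups do not overlap, up to 4 called probes dark in each group, the 4 brightest, and the 3 accessions whose probes differ most; all others were chosen after their values were seen. A step for accessions paired with a symbol found none. The probes and lists were chosen with earlier results of these data known. Alternatives were quantile normalization, scaling to the median or to housekeeping genes, normexp with an offset of 50 (on the median spot signal, since the files hold no mean), the series table, no filter, only probes above background on all 8 arrays, a replicate block, a slide column block, a trended and robust eBayes, weighted arrays, and leaving out each array. All arrays lie on 1 slide with 1 scan, so no slide block was run. In data simulated with the spread of the 30348 probes, on which the fit was tested, of 200 probes changed 4-fold 47% were recovered, and of 200 changed 2-fold 0%. Only those 200 of the 30348 were changed each time, while 4231 were called in the data. The Benjamini-Hochberg cut depends on that share, so these percentages do not carry over to the data. There, 2 higher and 9 lower AK calls were under 2-fold.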

Additional observations from a re-analysis of the deposited data

Results flagged for a closer look

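In the P150KD group, the only one with enough arrays for this rule, each of 46 named AK probes and Chaf1a was examined for an array far from the other 4, and 2 were found; chance alone gives about 1 in 20. On the brighter AK020613 probe P150KD replicate 3 read -0.74, below the others at 0.38 to 0.58 and still above every control. On AK139379, which did not change between the groups (log2 difference -0.07, limma adjusted p = 0.96), P150KD replicate 1 read -4.62, below the others at -1.99 to -1.05.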

How the results depend on the processing

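The 92 called AK probes (56 higher, 36 lower) became 29 (22 and 7) when blocked by slide column, and housekeeping scaling gave 114 higher and 10 lower. The median log2 difference of -0.10 was 0.51 under housekeeping scaling and 0.034 under the column block. Called probes dark in a group and detected on every array of the other, which their selection favours, numbered 6, against 3 with normexp and 0 under the column block. Leaving out each array in turn gave totals of 48 to 91, with 35 to 63 higher and 13 to 29 lower. Over these fits 4.76% to 9.03% of AK probes were called, beside 5.62% to 12.4% of all tested probes. Chaf1a had a log2 difference of -3.72 under the column block (adjusted p = 0.0509) and -2.73 with the replicate block (adjusted p = 0.163). With the replicate block 0 of all 30348 tested probes were called in limma, and so 0 AK probes, in either direction or among those dark in a group. Of the 1008 AK probes 159 had an unadjusted limma p under 0.05 with that block. Without it 215 did, beside 9236 of all 30348 tested probes. Deviations from the group means had correlations of -0.014, -0.0745 and -0.0168 between same-numbered arrays. Differently numbered arrays of the 2 groups had correlations of -0.0597 to 0.1. With so few arrays this cannot tell whether same-numbered arrays share a collection of embryos. Of the 29 named probes that passed, 18 passed in each fit that leaves out an array, 9 under the column block and 29 with array weights; no direction reversed. Counting only accessions with 1 probe, added after the data were seen, gave 85. The cause of these shifts was not tested. A probe near background limits what its size can show.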

Other observations

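A further block of accession numbers, AK076, also held several rises, and was singled out after its values were seen, with no test. Of its 17 tested probes (15 accessions) 4 were higher and 1 lower past the threshold in limma (29.4%, beside 9.13% of all AK probes and 13.9% of all tested probes), and 13 had a difference above 0 (median 1.48). Its median level was -1.59, beside -2.85 for all AK probes. Of the 110 blocks, 37 were of similar size, so there were many to pick from. AK076842 was dark in siControl and AK076896 was detected on 1 control, so their rises are a description. Fitted with only probes above background on all 8 arrays, 9 AK076 probes remained, with 3 higher and 1 lower. In that fit 16.4% of AK probes and 22.6% of all probes were called. Besides AK076896 and AK076842, AK076764 rose from 3.33, 3.02 and 2.90 on the siControl arrays to 5.58, 6.26, 6.24, 5.95 and 5.78 on the P150KD arrays, the last 5 within 0.7 of each other. AK076846 rose from 1.17, 1.39 and 1.29 to 3.85, 3.09, 2.92, 4.01 and 3.21, with replicates 1 and 4 highest. AK076455 was the 1 that fell, from 5.02, 4.67 and 5.41 to 4.15, 4.48, 3.62, 3.76 and 3.41; its call was lost in 7 of the 8 fits that leave out an array, all but that without P150KD replicate 2.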
